A study of Homo sapiens with 6 samples.

Results

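The genes described here encode 5 soluble autophagy receptors, SQSTM1, NBR1, OPTN, TAX1BP1 and CALCOCO2, and 5 proteins of the ATG8 family, GABARAP, GABARAPL1, GABARAPL2, MAP1LC3A and MAP1LC3B. They were taken by symbol from a table of 27451 gene rows, and each of the 10 symbols matched a single row. Poly-A RNA was sequenced from MDA-MB-231 cells, an established triple-negative breast cancer line of human origin. One group was 3 libraries of cells given 2 µM H182 for 2 h, and the other was 3 libraries of cells given the solvent DMSO. The series title concerns STAT3 inhibitors and also names mitophagy, the removal of mitochondria by autophagy. No label says if replicates were grown separately, so each p-value reflects variation among these libraries only, possibly technical.

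Macroautophagy encloses cytoplasmic cargo in a double membrane that fuses with lysosomes. ATG8 proteins are ubiquitin-like and become joined to the lipid phosphatidylethanolamine on that membrane. Receptors hold cargo, often ubiquitinated, with one part and an ATG8 protein with another. SQSTM1 (p62) is itself degraded with its cargo, so its protein amount can change without any change of mRNA, and mRNA values say nothing of autophagic flux.

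Values were TPM, abundances per transcript length scaled to a total of 1000000 in each library, and can be compared between genes. TPM are therefore shares, and the read depth is unknown. Between 12230 and 12353 genes reached 1 TPM per library. The line's own markers were present. VIM, a mesenchymal filament gene, lay between 3430 and 4051 TPM, while ESR1 and PGR reached at most 0.06 TPM. ERBB2 (24.9 to 29.4 TPM) and EPCAM (12.5 to 16.2 TPM), listed as low in this line, were detected. Of the leukocyte, endothelial and fibroblast markers, COL1A1 lay at 6.81 to 8.37 TPM, CD14 reached 2.27 TPM, PDGFRB 1.9 TPM and PTPRC 1.07 TPM, and all others stayed at or below 0.42 TPM.

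Of the 10 genes, SQSTM1, GABARAPL1 and MAP1LC3B rose in H182 and none fell (limma, Benjamini-Hochberg adjusted p under 0.05 over 12294 tested genes). All 10 passed the filter of a mean of 1 TPM. Among all tested genes, 24.0% were called, 5.30% higher and 18.7% lower. After median-of-ratios scaling, which sets the typical gene to no change, the calls for the 10 genes were also 3 higher and 0 lower, against 7.91% and 6.79% of all tested genes. The median log2 change was 0.01 over the 10 genes and -0.09 over all tested genes. The receptors and ATG8 genes that did not pass lay between -0.17 and 0.10 on the log2 scale.

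**Figure D1:**
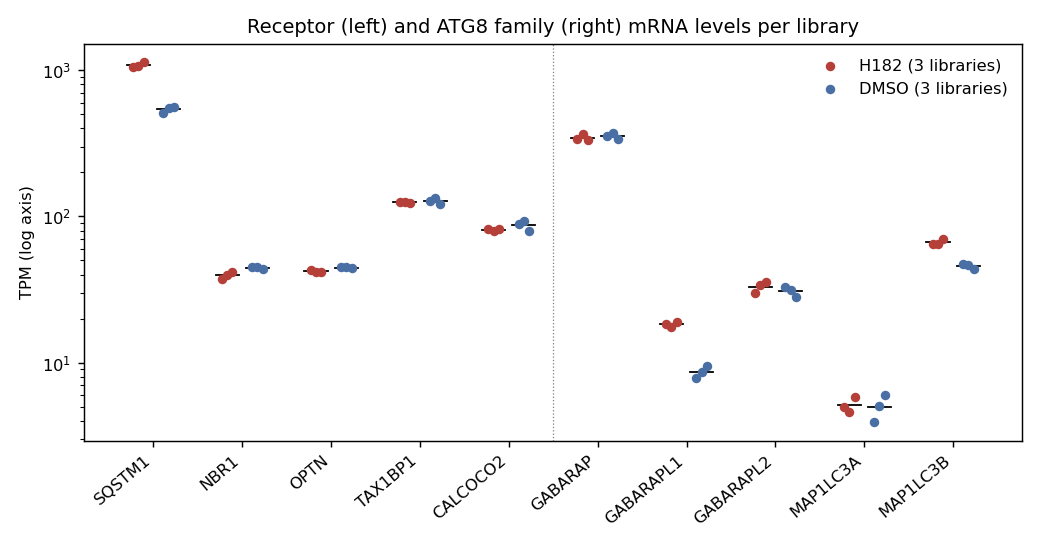
TPM of each gene on a log axis, with a point per library and a black line at the mean of 3 libraries, receptors left and ATG8 family right of the dotted line. SQSTM1, GABARAPL1 and MAP1LC3B lay higher in every H182 library than in any DMSO library, as did 8.67% of tested genes. SQSTM1 and GABARAP were the most abundant in both groups.

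Sequences near the RNA start sites are shown first, because 3 of the genes rose. RefSeq promoter windows of GRCh38.p14 were found for 9 of the 10 genes, 14 windows in all, and the 250 bases before each start were searched on both strands for 6 motifs. No searched motif was found in the 3 windows of SQSTM1 or in the window of GABARAPL1. In lower case, since they hold no match, the stretches of these windows that lie outside annotated exons are given for the most downstream SQSTM1 start (chr5:179820707-179820758, plus strand) and for GABARAPL1 (chr12:10212754-10212804, plus strand).
SQSTM1: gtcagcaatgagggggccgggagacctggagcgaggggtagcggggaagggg
GABARAPL1: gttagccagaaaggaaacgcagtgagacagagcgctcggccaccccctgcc

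The MAP1LC3B window held the core letters of the antioxidant response element, TGACNNNGC, at 46 to 38 bases before the start. Its 30 bases are shown beside those of CALCOCO2, which holds the same letters on the other strand and did not pass the test, with the match in capitals (chr16:87392280-87392309 and chr17:48830896-48830925, both shown on the plus strand).
MAP1LC3B: gcgagtcaccTGACCAGGCtgcgggctgag
CALCOCO2: cgctcctgggGCCCGGTCAcctgaacacta
Those letters were found in 10.9% of all 35116 windows. The paired heat shock element letters GAANNTTC were found in TAX1BP1 and GABARAPL2, neither of which passed the test, and in 5.78% of all windows (chr7:27739271-27739300 and chr16:75566149-75566178, plus strand).
TAX1BP1: aagataattttGAATGTTCtgtatttagaa
GABARAPL2: accagttccccGAACATTCctgcgagcaat
The forkhead letters GTAAACA were found in CALCOCO2 and in 2.98% of windows. The E-box CACGTG (6.34% of windows), the C/EBP and ATF letters TGATGNAA (3.14%) and the AP-1 letters TGANTCA (6.57%) were found in none of the 14. A match describes letters, not binding, and the absence of one concerns only these 6 patterns in these windows. Letters outside the 6 patterns, such as TGACGTCA in the GABARAPL1 window, were not searched for.

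SQSTM1 encodes p62, which joins ubiquitinated aggregates to ATG8 proteins and also holds KEAP1, the adaptor that marks NRF2 for destruction. It had 1060, 1075 and 1138 TPM in the H182 libraries, against 512, 552 and 559 TPM in the DMSO libraries. Every H182 library lay far above every DMSO library, and groups lay apart in the higher direction for 8.67% of tested genes. The mean was 1091 ± 41.6 TPM in H182 and 541 ± 25.5 TPM in DMSO (SD, n = 3 each), a 2.02-fold ratio. On the log2 scale the change was 1.01 (SE 0.0439, limma adjusted p = 2.15e-07), with a 95% interval of 0.91 to 1.11. Only 1.33% of tested genes had a larger log2 change. In bulk RNA, more RNA per cell and more cells with the RNA cannot be told apart. The gene (ENSG00000161011.19) spans 179806398 to 179838078 on the plus strand of chromosome 5 in GRCh38, and in DMSO 97.9% of tested genes had a lower mean.

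Exons of SQSTM1 overlap those of MRNIP, a DNA repair gene listed under its older symbol C5orf45, on the opposite strand, by 1582 bases, and those of MGAT4B, an N-glycan branching enzyme gene also on the opposite strand, by 105 bases. MRNIP had 17.4, 18.3 and 18.7 TPM in H182, against 6.08, 7.75 and 6.26 TPM in DMSO. Its listed value rose by 1.32 on the log2 scale (SE 0.102, limma adjusted p = 1.80e-05). MGAT4B fell to 106 ± 7.55 TPM in H182, against 140 ± 12.9 TPM in DMSO (SD, n = 3 each; log2 change -0.40, limma adjusted p = 0.00424). The library kit marks strand, but the strand setting of the authors' counting was not given in the sources used here. It is therefore unknown if reads in the 1582 shared bases, of 7654 exonic bases of SQSTM1, were told apart by strand. How much of the listed MRNIP value comes from reads of SQSTM1 was not tested. MRNIP was at a far lower level than SQSTM1 in every library.

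The other receptors did not pass the test. NBR1, a receptor built much like p62 that carries protein aggregates and peroxisomes, had 37.2, 39.8 and 41.9 TPM in H182, against 44.8, 45.3 and 43.6 TPM in DMSO. The groups did not overlap, as was so in the lower direction for 32.7% of tested genes. Its log2 change was -0.17 (SE 0.0599, limma adjusted p = 0.0722), with a 95% interval of -0.30 to -0.03. NBR1 was called lower without H182 replicate 3 (log2 change -0.21, limma adjusted p = 0.0429), and its change was -0.07 after median-of-ratios scaling.

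OPTN, optineurin, a receptor of mitochondria and bacteria that the kinase TBK1 phosphorylates, had 43.0, 41.8 and 41.8 TPM in H182, against 44.7, 45.1 and 44.2 TPM in DMSO. The groups lay apart by a small margin, and the log2 change of -0.08 did not pass (limma adjusted p = 0.272; 0.02 after median-of-ratios scaling). TAX1BP1, which carries aggregates and bacteria and shares its SKICH fold with CALCOCO2, had 126, 126 and 124 TPM in H182, against 128, 133 and 122 TPM in DMSO. CALCOCO2, the bacterial and mitochondrial receptor NDP52, had 81.6, 79.1 and 81.8 TPM in H182, against 88.7, 92.8 and 79.7 TPM in DMSO. Both sets of groups overlapped. The 95% interval of the log2 change was -0.13 to 0.07 for TAX1BP1 and -0.24 to 0.03 for CALCOCO2, so neither range reached the change of SQSTM1. All 4 genes lie on the plus strand in GRCh38: NBR1 at chr17:43170481-43211689, CALCOCO2 at chr17:48830988-48866522, OPTN at chr10:13099449-13138308 and TAX1BP1 at chr7:27739331-27844564.

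SQSTM1 took up a larger share of receptor mRNA in every H182 library. The 5 receptors summed to 1378 ± 42.6 TPM in H182 and 845 ± 25.7 TPM in DMSO (SD, n = 3 each), while the 4 without SQSTM1 summed to 288 ± 1.14 TPM in H182 and 304 ± 13.4 TPM in DMSO. SQSTM1 made up 78.7%, 78.9% and 79.8% of the receptor sum in the H182 libraries, against 62.6%, 63.6% and 65.8% in the DMSO libraries. A ratio within a library does not depend on the scaling. SQSTM1 was at 27.6 ± 0.840 times the TPM of NBR1 in H182 and 12.1 ± 0.687 times in DMSO (SD, n = 3 each). These sums and shares were not tested.

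**Figure D2:**
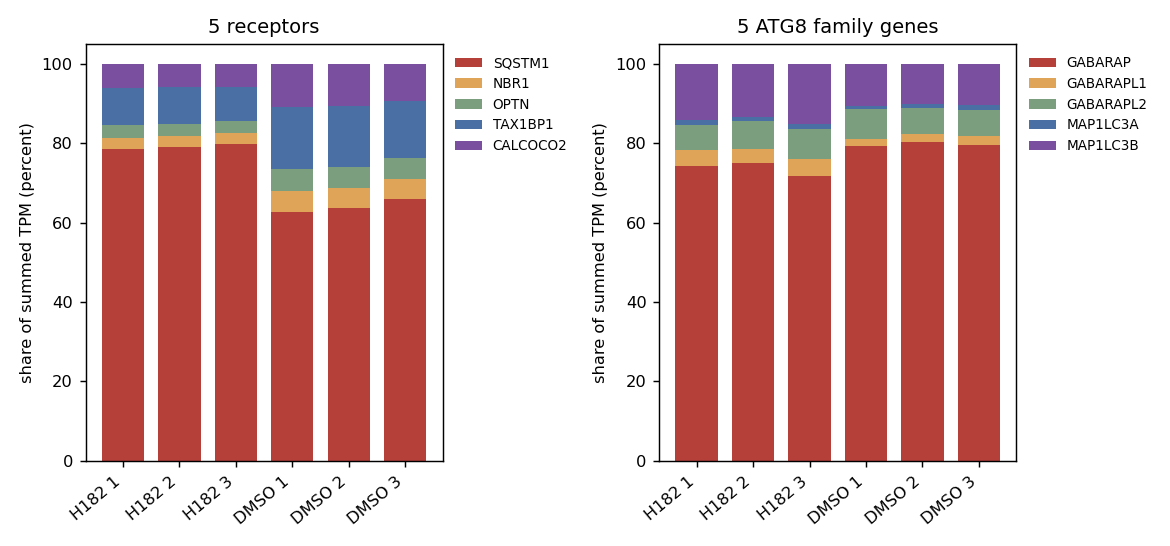
Share in percent of each gene in the summed TPM of the 5 receptors (left) and of the 5 ATG8 family genes (right), with a bar per library. SQSTM1 holds 79.1% of the receptor sum on average in H182 and 64.0% in DMSO, and GABARAP holds 73.7% of the ATG8 sum in H182 and 79.8% in DMSO.

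In the GABARAP branch of the ATG8 family, which acts late in the closure of the autophagosome and its fusion with the lysosome, only GABARAPL1 passed. GABARAPL1 had 18.4, 17.5 and 19.0 TPM in H182, against 7.90, 8.59 and 9.53 TPM in DMSO. Every H182 library was above every DMSO library. The mean was 18.3 ± 0.743 TPM in H182 and 8.67 ± 0.818 TPM in DMSO (SD, n = 3 each), a 2.11-fold ratio, with a log2 change of 1.0 (SE 0.0902, limma adjusted p = 5.45e-05). The gene (ENSG00000139112.10) lies at 10212458 to 10223130 on the plus strand of chromosome 12. An antisense gene overlaps 329 of its exonic bases and was not analysed here.

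GABARAP itself, the most abundant ATG8 mRNA, had 340, 366 and 333 TPM in H182, against 353, 375 and 340 TPM in DMSO. It lies at chr17:7240014-7242770 on the minus strand. An overlapping protein-coding gene on the same strand, which shares 27.3% of its 50-base stretches, was listed at 0 in every library. GABARAPL2, also called GATE-16 (chr16:75566351-75577881, plus strand), had 29.8, 34.1 and 35.3 TPM in H182, against 32.8, 31.1 and 28.2 TPM in DMSO. The groups overlapped for both. Their log2 changes were -0.04 and 0.10 (limma adjusted p = 0.591 and 0.398), with 95% intervals of -0.15 to 0.07 for GABARAP and -0.08 to 0.29 for GABARAPL2. GABARAPL1 was at 0.0531 ± 0.00469 of the GABARAP level in H182 and 0.0245 ± 0.00310 in DMSO (SD, n = 3 each). It therefore remained a minor transcript of the branch after its rise, and the branch summed to 397 ± 17.2 TPM in H182 and 395 ± 18.4 TPM in DMSO.

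In the LC3 branch, which acts in the growth of the membrane and the capture of cargo, MAP1LC3B rose. It encodes LC3B, whose lipid-bound form is the usual marker of autophagosomes. MAP1LC3B had 65.0, 65.2 and 70.2 TPM in H182, against 46.9, 46.7 and 43.9 TPM in DMSO. The lowest H182 library lay well above the highest DMSO library. The mean was 66.8 ± 2.95 TPM in H182 and 45.9 ± 1.66 TPM in DMSO (SD, n = 3 each), a 1.46-fold ratio, with a log2 change of 0.53 (SE 0.0549, limma adjusted p = 0.000137). The gene (ENSG00000140941.12) lies at 87383995 to 87404779 on the plus strand of chromosome 16. Its exons overlap those of FBXO31, a ubiquitin ligase subunit gene on the opposite strand, by 150 bases, and FBXO31 was at 15.3 ± 0.317 TPM in H182 and 18.5 ± 1.30 TPM in DMSO (SD, n = 3 each; limma adjusted p = 0.0427). The FBXO31 call was lost after median-of-ratios scaling and without any library but DMSO replicate 3 (limma adjusted p = 0.0594 to 0.129).

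MAP1LC3A, which encodes LC3A and lies at chr20:34546854-34560345 on the plus strand, had 4.99, 4.58 and 5.84 TPM in H182, against 3.89, 5.02 and 5.99 TPM in DMSO. The groups overlapped throughout, and the log2 change was 0.05 (limma adjusted p = 0.839) with the widest 95% interval of the 10 genes, -0.29 to 0.39. It was the lowest of the 10 in both groups.

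MAP1LC3B has a near-identical copy, MAP1LC3B2, on chromosome 12. In GENCODE 29 their coding sequences differ at 2 of 375 bases, and the longest stretch without a difference is 307 bases. The first 60 coding bases are shown because they hold the first difference, C30G, in capitals; positions are counted from 1 at the start codon, with the MAP1LC3B base first. The other difference is A338G.
MAP1LC3B: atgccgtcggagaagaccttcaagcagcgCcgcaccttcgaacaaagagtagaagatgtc
MAP1LC3B2: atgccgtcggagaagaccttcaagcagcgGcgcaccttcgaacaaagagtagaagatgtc
By contrast, the coding sequence of MAP1LC3B matched that of MAP1LC3A at 73.6% of aligned bases, and that of GABARAPL1 matched GABARAP at 76.6%. Of the 50-base stretches in MAP1LC3B transcripts, 4.82% also occur in MAP1LC3B2.

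MAP1LC3B2 was listed at 7.92, 5.32 and 6.55 TPM in H182, against 4.72, 2.56 and 2.68 TPM in DMSO. Its groups did not overlap, and it was called higher (log2 change 0.84, SE 0.200, limma adjusted p = 0.0156). The call was lost without H182 replicate 1, DMSO replicate 2 or DMSO replicate 3 (limma adjusted p = 0.0501 to 0.0609), and with no filter on low values (0.0621). The division of reads between the copies is uncertain. Their sum was 72.9, 70.5 and 76.8 TPM in H182, against 51.6, 49.3 and 46.6 TPM in DMSO, a 1.49-fold ratio of means that differs little from that of MAP1LC3B alone.

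The 5 ATG8 family genes summed to 469 ± 15.5 TPM in H182 and 446 ± 19.3 TPM in DMSO (SD, n = 3 each), and the groups overlapped. After median-of-ratios scaling the sums were 486 ± 18.5 TPM in H182 and 429 ± 16.9 TPM in DMSO, and the groups no longer overlapped. MAP1LC3B made up 14.2%, 13.4% and 15.2% of the sum in H182, against 10.6%, 10.03% and 10.3% in DMSO. GABARAPL1 made up 3.91 ± 0.270% in H182 and 1.95 ± 0.243% in DMSO (SD, n = 3 each).

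**Figure D3:**
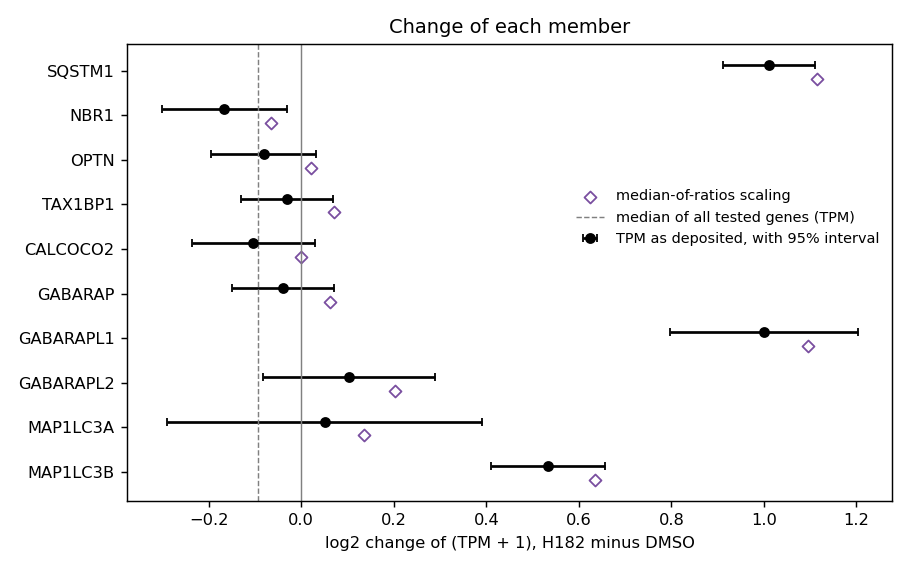
Log2 change of each gene, H182 minus DMSO, with its 95% interval from limma (black) and the value after median-of-ratios scaling (open diamonds). SQSTM1 and GABARAPL1 lie near 1.0 and MAP1LC3B at 0.53, and the points of the other 7 genes lie between -0.17 and 0.10 in TPM.

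Ordered by level, SQSTM1, GABARAP, TAX1BP1 and CALCOCO2 stood highest, in that order, in H182 and in DMSO, with no overlap between neighbours. MAP1LC3B came next in both groups. In H182 its libraries lay above all those of OPTN, whereas in DMSO the ranges of MAP1LC3B, OPTN and NBR1 overlapped, within a combined span of 43.6 to 46.9 TPM. OPTN and NBR1 overlapped in H182 as well. GABARAPL2, GABARAPL1 and MAP1LC3A followed in both groups, each apart from its neighbour.

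**Figure D4:**
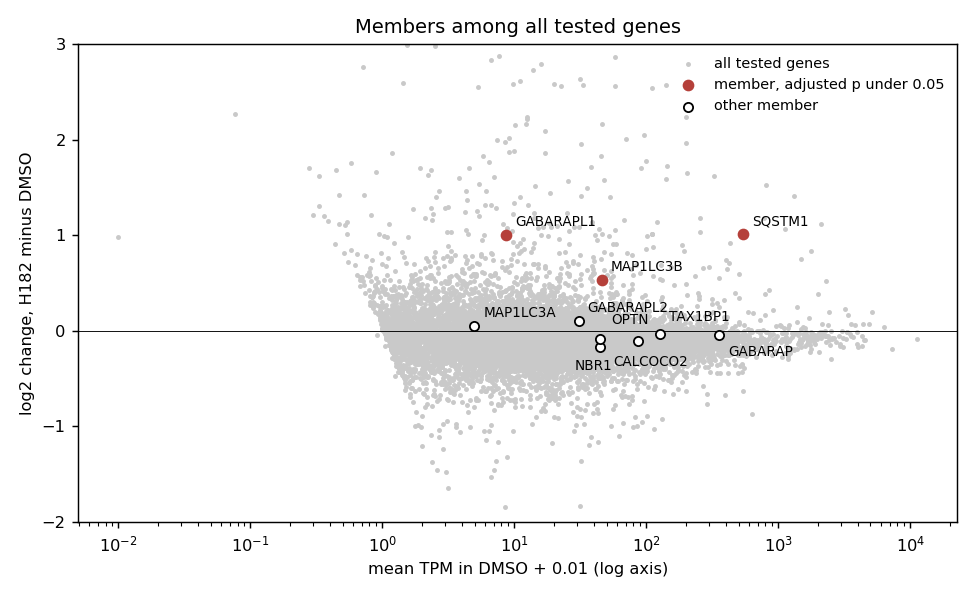
Log2 change, H182 minus DMSO, against the mean TPM in DMSO on a log axis, for all 12294 tested genes (grey), the 3 genes that passed (red) and the other 7 (open). The vertical axis runs from -2 to 3 and leaves out 28 tested genes; 1.33% of tested genes lie above SQSTM1 and 3.05% above MAP1LC3B.

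For the 3 genes that rose, the tested genes nearest in change were found by the Euclidean distance over the 6 libraries, in log2(TPM + 1) less the DMSO mean. The level was removed, so genes with a log2 change of similar size come out nearest, and shared regulation was not tested. Nearest to SQSTM1 were PMAIP1 (distance 0.0818), FOSL2 (0.0996) and GABARAPL1 (0.115). Nearest to GABARAPL1 were FOSL2 (0.0893), the clone RP11-2B6.2 (0.104) and SQSTM1 (0.115). RP11-2B6.2 was low, with means of 3.09 TPM in H182 and 1.07 TPM in DMSO. Nearest to MAP1LC3B were MEF2D (0.0826), UAP1 (0.0979) and CDC42EP2 (0.103). PMAIP1 encodes the death protein NOXA and FOSL2 an AP-1 subunit, and their log2 changes were 0.995 and 1.01.

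Beside these 10, lists of 94 other genes of the pathway held 88 that were tested, of which 5 rose and 10 fell, beside 5.30% higher and 18.7% lower among all tested genes. After median-of-ratios scaling 12 were higher and 1 lower, beside 7.91% and 6.79%. The lists include 12 regulators of transcription, which held 3 of the 5 rises in TPM. Nothing particular to these lists is read from the counts. The median log2 change was -0.07, or 0.03 with that scaling. Among the 15 called genes, ATL3, ATF4, DDIT3, CEBPB and RPTOR passed in all 6 fits that left out a library.

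Of 11 tested enzymes and cofactors that process and attach ATG8 proteins, none was called higher, and ATG16L1 and ATG4C fell. The shares among all tested genes were 5.30% higher and 18.7% lower. ATG16L1, which places the conjugation reaction on the membrane, was at 11.3 ± 0.928 TPM in H182 and 14.98 ± 1.78 TPM in DMSO (SD, n = 3 each; limma adjusted p = 0.0269). ATG4C, a protease of the family that trims ATG8 proteins, was at 15.3 ± 1.76 TPM in H182 and 19.0 ± 0.603 TPM in DMSO (limma adjusted p = 0.0419). Neither was called after median-of-ratios scaling. The call of ATG16L1 was lost without H182 replicate 1 or 2 or DMSO replicate 1 or 3 (limma adjusted p = 0.0651 to 0.0859), and that of ATG4C without any library but H182 replicate 3 (0.0778 to 0.125).

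In the ULK1 initiation complex 1 of 5 rose, beside 5.30% of all tested genes. ULK1, its kinase, had 10.9, 14.9 and 14.7 TPM in H182, against 10.5, 9.66 and 8.54 TPM in DMSO, and H182 replicate 1 lay close to the DMSO libraries (log2 change 0.45, limma adjusted p = 0.0340). The call was lost without H182 replicate 2 or 3 or DMSO replicate 2 or 3 (limma adjusted p = 0.0801 to 0.118). It was also lost with no filter on low values (limma adjusted p = 0.0955) and without the mean-variance trend (0.0630). RB1CC1, the scaffold FIP200, was called higher after median-of-ratios scaling (limma adjusted p = 0.0399). Of 9 tested genes of the class III PI3 kinase complex and 10 in a list for the phagophore membrane and lipid transfer, none passed in TPM. The second list also held EPG5, although it is a tether of autophagosomes to lysosomes. Those with the lowest p were ATG14 (log2 change 0.19) and SH3GLB1 (-0.07) in the first, and EPG5 (0.34) and ATG2B (0.33) in the second. EPG5 was called higher without H182 replicate 2 (limma adjusted p = 0.0164), after median-of-ratios scaling (0.0327), with quantile normalization (0.0439) and when only genes averaging 5 TPM or more were tested (0.0420). ATG2B, a lipid transfer protein, was also called higher without H182 replicate 2 (0.0367), and ATG14 (0.0402) and TMEM41B (0.0311), a lipid scramblase, after median-of-ratios scaling.

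Of 18 other tested receptors, none rose and NCOA4, SEC62 and ATL3 fell in TPM, a share near the 18.7% of all tested genes called lower. NCOA4, the receptor of ferritin, was at 99.7 ± 1.24 TPM in H182 and 113 ± 5.44 TPM in DMSO (SD, n = 3 each). SEC62 and ATL3, receptors of the endoplasmic reticulum, changed by -0.19 and -0.25 on the log2 scale. None of these 3 falls was called after median-of-ratios scaling, when BNIP3, a mitophagy receptor, was called higher (log2 change 0.15, limma adjusted p = 0.0447). NCOA4 lost its call without H182 replicate 2 or DMSO replicate 2 or 3 (limma adjusted p = 0.0687 to 0.0834), and SEC62 without H182 replicate 2 or 3 or DMSO replicate 1 or 2 (0.0973 to 0.117). Of 10 tested fusion genes, SNAP29, a SNARE of the autophagosome, fell by 0.25 and VPS41, of the HOPS tether, by 0.25 on the log2 scale. Neither was called after median-of-ratios scaling, when PLEKHM1, an adaptor of lysosome fusion, was called higher (log2 change 0.28, limma adjusted p = 0.0337). SNAP29 lost its call without H182 replicate 1 or 3 or DMSO replicate 2 or 3 (limma adjusted p = 0.0632 to 0.0810), and VPS41 without any library but H182 replicate 2 (0.0852 to 0.141).

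Of 6 tested receptor kinases and adaptors, CSNK2A1, a subunit of the kinase CK2, was at 110 ± 4.86 TPM in H182 and 132 ± 10.3 TPM in DMSO (SD, n = 3 each; log2 change -0.27, limma adjusted p = 0.0123; 0.0510 without H182 replicate 2). The fall was not called after median-of-ratios scaling. Of 6 tested signalling partners of p62, RPTOR, the mTORC1 subunit that holds substrates, had 22.4, 23.3 and 24.9 TPM in H182, against 30.02, 32.3 and 28.6 TPM in DMSO. It fell with both scalings (log2 change -0.35, limma adjusted p = 0.00764). In each list 1 of 6 tested genes was called lower in TPM, beside 18.7% of all tested genes. After median-of-ratios scaling that share of all tested genes was 6.79%.

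Among 12 tested regulators, 3 rose and 1 fell, beside 5.30% higher and 18.7% lower among all tested genes. The list was chosen with earlier results of these data known. CEBPB, a bZIP factor gene of stress and cytokine responses, was at 285 ± 1.92 TPM in H182 and 70.5 ± 3.52 TPM in DMSO (SD, n = 3 each; log2 change 2.00, limma adjusted p = 1.45e-09). DDIT3, which encodes CHOP, was at 59.97 ± 4.58 TPM in H182 and 24.9 ± 1.68 TPM in DMSO (limma adjusted p = 2.73e-06). ATF4, the central factor of the integrated stress response, was at 487 ± 4.66 TPM in H182 and 390 ± 8.97 TPM in DMSO (limma adjusted p = 0.000151). KEAP1, which p62 binds, fell to 91.1 ± 3.79 TPM in H182, against 106 ± 5.13 TPM in DMSO (limma adjusted p = 0.0167; 0.0597 without DMSO replicate 3), but was not called after median-of-ratios scaling. TFEB (log2 change -0.03) and TFE3 (0.04), the factors of lysosome and autophagy genes, HSF1 (-0.05), the heat shock factor, and NFE2L2 (0.12), the gene of NRF2, did not pass. TFEB was low, with means of 1.71 TPM in H182 and 1.85 TPM in DMSO. The SE of its log2 change was 0.227, against 0.0695 for TFE3. NFE2L2 was called higher after median-of-ratios scaling (0.22). mRNA levels say nothing of the activity of these factors.

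**Figure D5:**
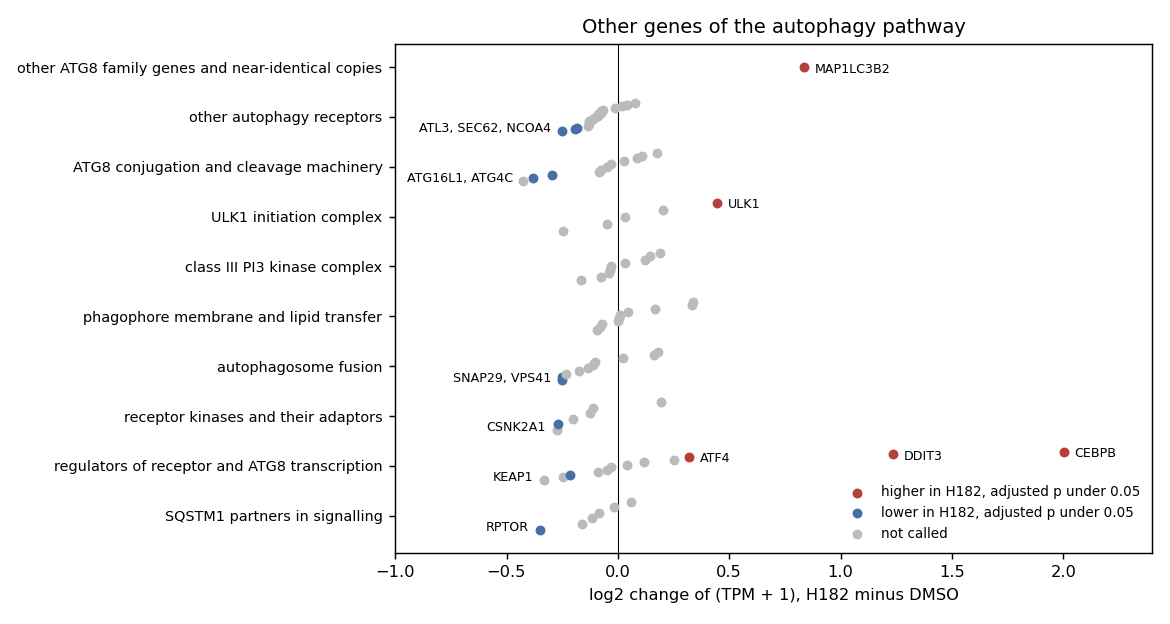
Log2 change, H182 minus DMSO, of each tested gene in the lists of other pathway genes, with a point per gene coloured by its call in TPM. MAP1LC3B2, ULK1, ATF4, DDIT3 and CEBPB are higher, 10 genes are lower by 0.38 or less, and only RPTOR among these 10 passes after median-of-ratios scaling.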

How the data were processed

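The authors deposited 1 table of gene-level TPM for the 6 libraries. Per the submitters' processing notes, STAR 2.5.0 and RSEM 1.2.25 were used with GRCh38. The sources used here do not give the annotation, trimming or strand setting. Of 27567 rows, 92 spike-in rows, all at 0, and 24 repeated rows of genes on X and Y were left out. TPM keeps no depth, so no counting interval is given. Log2(TPM + 1), with a pseudocount of 1, was fitted with limma 3.58.1 in R 4.3.3 (mean-variance trend, two-sided) for the 12294 genes averaging 1 TPM or more. Log2 changes of log2(TPM + 1) understate the change of low genes. Exact permutation of 3 against 3 libraries cannot go below p = 0.1, which SQSTM1, GABARAPL1, MAP1LC3B, NBR1 and OPTN reached. Any gene whose groups lie apart reaches it, as held for 8.67% of tested genes in the higher and 32.7% in the lower direction. The fit was tested on simulated data. Symbols with several identifiers used the highest row. From each list, up to 4 called genes with the lowest p, or the 2 lowest where none was called, are named; other genes were named after their values were seen. The genes and lists were chosen with earlier results of these data known. Coordinates come from GENCODE 29, promoters from RefSeq (only the 250 bases before each start were searched), and figures from matplotlib 3.10.9.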

Additional observations from a re-analysis of the deposited data

How the results depend on the processing

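SQSTM1, GABARAPL1 and MAP1LC3B passed under all 16 alternatives (pseudocount, filter, scaling, variance model, library weights, replicate block, threshold and each library left out), with log2 changes of 0.97 to 1.11, 0.94 to 1.10 and 0.50 to 0.63 and limma adjusted p of at most 0.000146, 0.000927 and 0.00217. Leaving out a library gave 3 of the 10 genes higher each time and 0 to 1 lower, NBR1 being lower without H182 replicate 3. Genes that did not pass changed sign under some settings. With median-of-ratios scaling OPTN was at 0.020, TAX1BP1 at 0.072, GABARAP at 0.063 and SH3GLB1 at 0.027, and with quantile normalization TAX1BP1 was at 0.045, GABARAP at 0.0080 and SH3GLB1 at 0.0023, all above 0. MAP1LC3A was at -0.0013 with library weights, -0.030 without H182 replicate 3 and -0.085 without DMSO replicate 1, and -0.085 to 0.17 with any library left out. The ratio of the summed ATG8 TPM was 1.05, and 1.13 with median-of-ratios scaling.

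Of all tested genes, 651 were higher and 2304 lower (78.0% of calls lower), against 972 and 835 with median-of-ratios scaling (46.2% lower) and 1261 lower with quantile normalization. At an adjusted p under 0.01, 998 were lower, and with a library left out 528 to 587 were higher and 1396 to 2205 lower, the fewest without DMSO replicate 2 (1396) and H182 replicate 2 (1478). Of the other autophagy genes, with the regulators of transcription counted among them, 5 were higher and 10 lower. They were 3 and 6 with no filter, 12 and 1 with median-of-ratios scaling, 8 and 2 with quantile normalization, and 3 and 1 at 0.01. With a library left out they were 3 to 6 and 5 to 9. Without the trend 3 were lower, namely ATL3, ATG16L1 and RPTOR. The cause was not tested. Same-numbered libraries did not deviate together (r = -0.0130, 0.00245 and -0.0359 across genes). These values cannot decide if same-numbered libraries were paired, because a weak shared deviation could give them too. With the replicate block 625 genes were higher and 2059 lower, 3 of the 10 were higher and 0 lower, and 4 and 9 of the other autophagy genes, with ULK1 and VPS41 not passing. Depth is unknown, so the limit it sets for low genes such as TFEB, MAP1LC3B2 and MAP1LC3A cannot be given.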
